A study of Mus musculus with 6 samples.

Results

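Scavenger and endocytic receptors were followed as 10 genes, namely Msr1, Marco, Colec12, Cd36, Scarb1, Mrc1, Scarf1, Stab1, Stab2 and Cd163. They were picked by symbol out of the 22183 genes of the deposited table, where each had a single row, and all 10 passed the filter on low counts, reaching its cutoff in all 6 libraries. Peritoneal endothelial cells (ECs) were isolated from wild-type male C57BL/6J mice, aged 8 to 10 weeks at the start, after 6 weeks of daily intraperitoneal injection of a glucose-based peritoneal dialysis (PD) fluid (PD mice) or of saline (saline mice). A separate mRNA library was sequenced for each of the 3 mice per group. The labels describe magnetic sorting of CD31+ cells, whereas the study's methods describe flow sorting of CD31+ CD45- cells from the digested mesentery. Between 21973426 and 26374292 reads per library were counted on genes.

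Scavenger receptors are surface proteins that bind and internalise modified lipoproteins, glycated proteins, polyanions, microbes and the remains of dying cells, and they are grouped in lettered classes by structure. In most tissues they are shared between macrophages and ECs. Sinusoidal and lymphatic ECs carry stabilins, capillary ECs carry Cd36, and resident macrophages carry the mannose receptor Mrc1 and the haemoglobin receptor Cd163. Bulk libraries therefore read these genes from every cell type that passed the sort, and a smaller number of cells of a type cannot be told apart from less RNA per cell.

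RefSeq promoter windows on GRCm38.p6 were found for 6 of the 10 receptors. Those of Stab1 and Mrc1, the genes with the highest fold changes among the 6, and of Marco, one of the least changed, are shown for the 250 bases before the start site, 5′ to 3′ in the direction of the gene. Capitals mark the searched motifs, each on either strand: GAGGAA (the core recognised by PU.1, a transcription factor of macrophages), TGACTCA (AP-1), TGCTGA (part of the site of MAF factors) and TATAAA.
Stab1, chr14:31168642-31168891, minus strand: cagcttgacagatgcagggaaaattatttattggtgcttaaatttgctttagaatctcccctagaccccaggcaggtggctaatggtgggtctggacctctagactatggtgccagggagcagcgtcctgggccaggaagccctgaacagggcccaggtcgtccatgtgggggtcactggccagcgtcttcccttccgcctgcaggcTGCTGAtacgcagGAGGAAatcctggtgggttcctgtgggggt
Mrc1, chr2:14229164-14229413, plus strand: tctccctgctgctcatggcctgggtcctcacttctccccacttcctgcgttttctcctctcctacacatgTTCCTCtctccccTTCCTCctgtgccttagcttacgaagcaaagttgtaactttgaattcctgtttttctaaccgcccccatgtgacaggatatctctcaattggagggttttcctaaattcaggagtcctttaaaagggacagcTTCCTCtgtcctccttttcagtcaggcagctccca
Marco, chr1:120505025-120505274, minus strand: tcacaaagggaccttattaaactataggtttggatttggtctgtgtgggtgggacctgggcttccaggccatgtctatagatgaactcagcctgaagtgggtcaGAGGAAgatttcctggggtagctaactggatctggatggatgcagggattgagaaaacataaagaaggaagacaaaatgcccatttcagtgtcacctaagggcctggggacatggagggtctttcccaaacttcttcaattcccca
The PU.1 core was found in 3 of the 6 windows, those of Stab1, Mrc1 and Marco, and in 23.3% of the 32851 promoter windows of the mouse table. Mrc1 held 3 copies, the nearest starting 35 bases before the start site. The MAF motif was found in the windows of Stab1 and Cd36, and in 16.1% of all windows. The RefSeq start site used for Cd36, at position 17835896 of chromosome 5, lies inside the gene as GENCODE M21 draws it, so that window stands before an internal start. AP-1 and TATAAA matched none of the 6 windows, against 4.46% and 12.4% of all windows. A match here describes the letters only. The windows of the strongly changed Stab1 and Mrc1 shared the PU.1 core with that of the weakly changed Marco. Those of Cd163 and Stab2, which are not shown, held no match to any searched motif.

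Most of these receptors had more transcript in PD mice. Levels within a gene are given as CPM, its counts relative to the scaled total of the library. Tested over all genes with edgeR, 9 of the 10 were higher in PD mice at an adjusted p under 0.05, where 31.1% of the 14005 tested genes were higher and 27.8% lower. The remaining gene was Stab2. The same 9 genes lay higher in every PD mouse than in any saline mouse, as did 34.0% of tested genes. With a fold change of at least 2 also required, 7 of the 10 were higher and 0 lower, against 15.4% and 1.8% of tested genes. Log2 fold changes of PD mice over saline mice ran from 0.18 for Stab2 to 2.55 for Stab1, with a median of 1.49, and the median over all tested genes was 0.017.

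**Figure D1:**
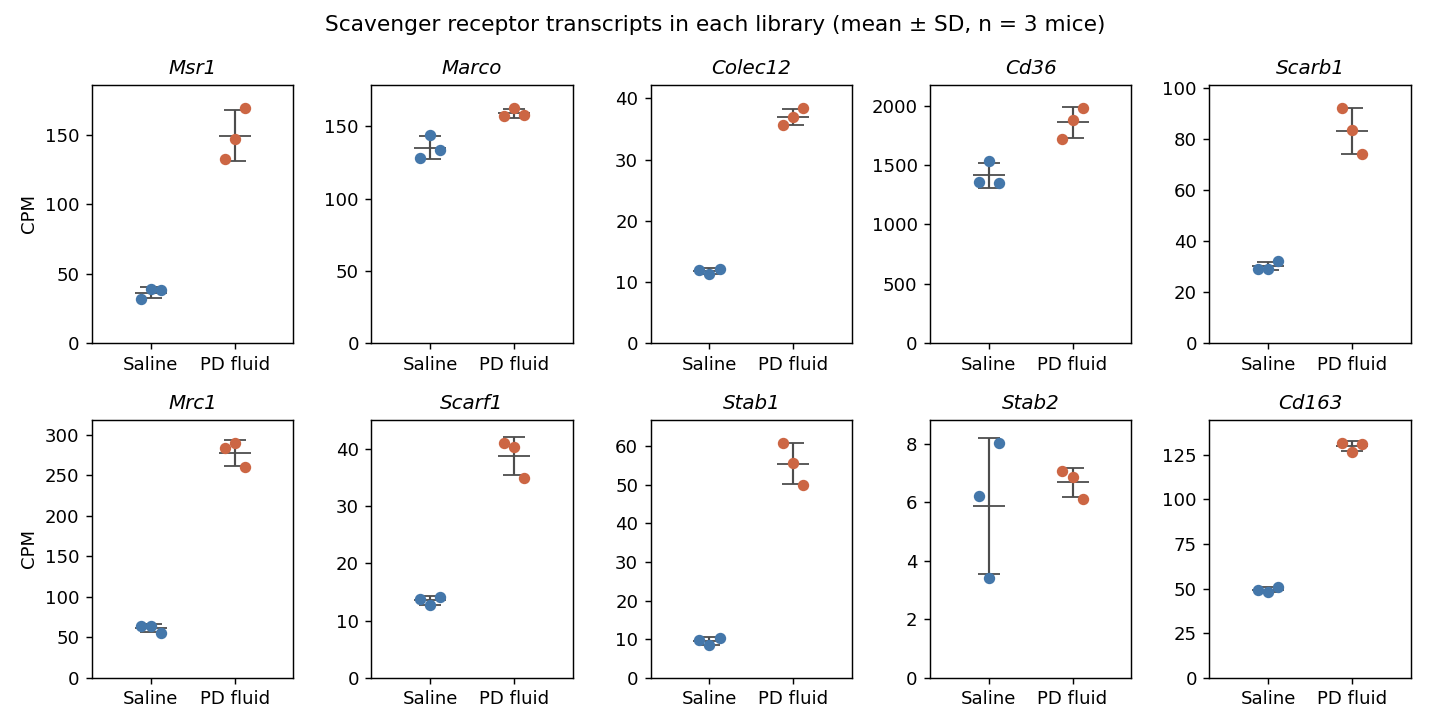
Level of each receptor in CPM (linear axes from 0) in the 3 saline and 3 PD mice. Points are mice, and bars are the mean and SD. In 9 panels the PD mice lie above all saline mice, while for Stab2 the groups overlap.

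Libraries labelled as endothelial held transcripts of several cell types, which bears on every receptor here. The 12 endothelial markers, Pecam1, Egfl7 and Eng being the most abundant over the 6 libraries, summed to between 1195 and 1211 CPM with saline and to between 1908 and 2018 CPM with PD fluid, and 11 of the 12 were higher in PD mice (edgeR, adjusted p under 0.05). The 12 macrophage markers summed to between 2631 and 2756 CPM with saline, and their sum reached between 10927 and 11824 CPM with PD fluid. All 12 were higher in PD mice, with a median log2 fold change of 2.05. Some genes stand in more than 1 list: Cd14, Cd68 and Mertk of the macrophage markers, Folr2 and Timd4 of the resident macrophage markers, Hp of the monocyte markers and Cd209a of the dendritic cell markers are counted again among the related genes given further on. Lyz2, C1qc and C1qb, the most abundant of the macrophage markers, were all detected in every library. The 5 leukocyte markers, including Ptprc, the gene of CD45, had the opposite course, with a sum between 6401 and 6764 CPM under saline and between 4999 and 5068 CPM under PD fluid, although 1 of them, Laptm5, was higher. The 6 B cell markers fell from between 5827 and 6104 CPM to between 2767 and 2803 CPM. Markers of fibroblasts (9 of 9) and mesothelial cells (8 of 8, of which Wt1 reached the cutoff of the filter on low counts in every PD mouse but not in every saline mouse) were all higher in PD mice, at 8.75 and 9.96 times the mean summed CPM of saline mice, and so were those of pericytes and smooth muscle (7 of 7, Cspg4 passing the filter in the same way). The 10 markers of pancreatic acinar cells, of which 9 did not reach the cutoff in every saline mouse, were nearly absent with saline, at 2.30 to 5.95 CPM in sum, and reached 7430 to 8369 CPM with PD fluid. Of the other lists, 5 of 6 T cell markers and 2 of 5 erythroid markers were lower and none was higher. In no marker list was a gene at 0 in all 6 libraries. The part of these cell types in the changes of the receptors was not tested.

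Among the class A receptors, which carry a collagen-like stalk, Msr1 and Colec12 rose several fold and Marco rose little. Msr1 (ENSMUSG00000025044; chromosome 8 of GRCm38, 39581685 to 39642673) encodes the macrophage receptor for modified low-density lipoprotein. It was at 31.6, 38.9 and 38.1 CPM in the 3 saline mice and at 132, 147 and 169 CPM in the 3 PD mice. The lowest PD mouse stood at more than 3 times the highest saline mouse. Its log2 fold change was 2.05 (standard error 0.11, edgeR adjusted p = 6.2e-08).

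Marco (ENSMUSG00000026390; chromosome 1, 120474538 to 120505024) encodes a receptor of some macrophages that binds bacteria and particles. Saline mice had 128, 144 and 133 CPM and PD mice 157, 162 and 158 CPM. The groups did not overlap, but the gap between them was small, and the log2 fold change was 0.23 (standard error 0.06, edgeR adjusted p = 0.00909). The counts of Msr1 were 0.246, 0.270 and 0.285 times those of Marco in saline mice, and 0.843, 0.903 and 1.07 times in PD mice. This ratio was higher in 3 of 3 PD mice, with a difference of 1.81 in the mean log2 ratio (exact two-sided permutation p = 0.1, the lowest value that 3 mice against 3 permit). This pair, like those compared further on, was chosen after its values were seen, so its p-value is a description only.

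Colec12 (ENSMUSG00000036103) encodes a collectin of the cell surface, described on ECs as well as stromal cells, that joins a collagen-like stalk to a lectin domain. Its levels were 11.99, 11.3 and 12.1 CPM in saline mice and 35.7, 36.9 and 38.4 CPM in PD mice. Mice of the same group were close to one another, with a coefficient of variation of 4.003% among the saline values and 3.64% among the PD values. The log2 fold change was 1.65 (standard error 0.09, edgeR adjusted p = 1.06e-07).

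Of the class B receptors, Cd36 was by far the more abundant and changed less than Scarb1. Cd36 (ENSMUSG00000002944; chromosome 5, 17781690 to 17888801) encodes a receptor for long-chain fatty acids, oxidised lipoproteins and thrombospondin, found on capillary ECs, macrophages and adipocytes. It was at 1355, 1538 and 1352 CPM in saline mice and at 1718, 1884 and 1978 CPM in PD mice. Each PD mouse was above each saline mouse. The log2 fold change was 0.39 (standard error 0.08, edgeR adjusted p = 0.00108).

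Scarb1 (ENSMUSG00000037936; chromosome 5, 125277087 to 125341094) encodes the receptor for high-density lipoprotein. Levels of 29.2, 29.2 and 32.0 CPM in saline mice stood against 92.2, 83.5 and 74.3 CPM in PD mice. PD mice varied more among themselves than saline mice did, with an SD of 8.93 against 1.63 CPM, yet all lay above the saline range. The log2 fold change was 1.47 (standard error 0.09, edgeR adjusted p = 2.86e-07). Relative to Cd36, the counts of Scarb1 were higher in 3 of 3 PD mice, with a difference of 1.07 in the mean log2 ratio (exact two-sided permutation p = 0.1, the lowest possible). Markers of capillary ECs, which carry Cd36, moved as well: 9 of 9 were higher in PD mice, with a median log2 fold change of 0.68, and their summed level went from between 1404 and 1641 CPM to between 2683 and 2762 CPM. The 7 adipocyte markers summed to between 24.3 and 27.4 CPM with saline and to between 25.8 and 30.4 CPM with PD fluid. The part of capillary ECs and adipocytes in the change of Cd36 was not tested.

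Class H holds the stabilins, large endocytic receptors of sinusoidal and lymphatic ECs, of which Stab1 is also found on resident macrophages. Here the pair parted. Stab1 (ENSMUSG00000042286; chromosome 14, 31139013 to 31168641), which takes up SPARC and other extracellular ligands, was at 9.68, 8.49 and 10.3 CPM in saline mice. In PD mice it was at 60.8, 55.7 and 50.0 CPM. The groups lay far apart, with a log2 fold change of 2.55 (standard error 0.11, edgeR adjusted p = 1.46e-08). Exons of Stab1 overlap those of Nt5dc2 on the other strand, and the strand setting of the counting is not given in the sources used here. Nt5dc2 itself went from 6.59 ± 1.43 to 14.995 ± 1.68 CPM (SD, n = 3 mice per group), a smaller change than that of Stab1 at a log2 fold change of 1.18 (standard error 0.17, edgeR adjusted p = 0.000147).

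Stab2 (ENSMUSG00000035459; chromosome 10, 86841198 to 87008025), the main clearance receptor for hyaluronan on sinusoidal ECs, was at 6.21, 3.41 and 8.03 CPM in saline mice. In PD mice its levels were 7.06, 6.88 and 6.12 CPM. The PD values fell inside the saline range, within which the mouse at 3.41 CPM was the lowest. The log2 fold change of 0.18 (standard error 0.25, edgeR adjusted p = 0.564) had a 95% interval from -0.32 to 0.68. It turned to -0.084 without that saline mouse, the second (edgeR adjusted p = 0.715). Its exons overlap those of Gm16268 on the other strand, for which no value is given here. Counts of Stab1 were 1.56, 2.49 and 1.28 times those of Stab2 in saline mice and 8.61, 8.10 and 8.18 times in PD mice, a difference of 2.28 in the mean log2 ratio (exact two-sided permutation p = 0.1, the lowest possible, and 0.1 after Benjamini-Hochberg adjustment over the 3 pairs compared). These pairs were chosen after their values were seen.

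The markers of the stabilin-bearing ECs differed in their course. All 8 lymphatic markers were higher in PD mice, with a median log2 fold change of 2.20 and a summed level between 1049.8 and 1194 CPM, against 232 to 252 CPM in saline mice. Lyve1, 1 of the 8, is also counted among the markers of resident macrophages. Of 5 tested sinusoidal markers, 2 were higher and 1 lower, against 31.1% and 27.8% of all tested genes. Fcgr2b went from 103 ± 2.01 to 284 ± 13.1 CPM and Gpr182 was also higher, whereas Dnase1l3 went from 217 ± 10.6 to 109 ± 29.7 CPM. Clec1b and Clec4g were not called, and Oit3 was not tested. Clec4g, a defining gene of liver sinusoids, was low in both groups, with 1.39 ± 0.344 CPM under saline and 1.37 ± 0.369 CPM under PD fluid (SD, n = 3 mice per group throughout). The part of lymphatic cells in the change of Stab1 was not tested.

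Mrc1, Scarf1 and Cd163 make up the remaining classes. Mrc1 (ENSMUSG00000026712; chromosome 2, 14229392 to 14332057), the mannose receptor of resident macrophages and of some ECs, binds mannosylated glycoproteins and collagen fragments. Its levels were 64.1, 63.7 and 55.4 CPM in saline mice and 284, 289 and 259.6 CPM in PD mice. The lowest PD mouse stood at more than 4 times the highest saline mouse. The log2 fold change was 2.18 (standard error 0.08, edgeR adjusted p = 2.91e-09).

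Scarf1 (ENSMUSG00000038188; chromosome 11, 75513540 to 75526582), a class F receptor with epidermal growth factor-like repeats first known from ECs, was at 13.7, 12.7 and 14.1 CPM in saline mice and at 41.1, 40.4 and 34.9 CPM in PD mice. All PD mice were well above the saline mice, at a log2 fold change of 1.52 (standard error 0.10, edgeR adjusted p = 4.4e-07). Cd163 (ENSMUSG00000008845; chromosome 6, 124304656 to 124330527), the receptor for haemoglobin bound to haptoglobin, was at 49.2, 48.0 and 50.9 CPM in saline mice and 132, 126 and 131 CPM in PD mice. It had the tightest saline values of the 10 genes, with a coefficient of variation of 2.98%. The log2 fold change was 1.39 (standard error 0.07, edgeR adjusted p = 2.48e-08).

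The 9 markers of resident macrophages, the cells best known for Mrc1, Cd163 and Stab1, were all higher in PD mice, with F13a1, Gas6 and Cd209f the most abundant. Their summed level was between 529 and 534 CPM in saline mice and between 1741 and 1818 CPM in PD mice. Gata6, listed here as a marker of large peritoneal macrophages, went from 1.16 ± 0.155 to 3.25 ± 0.724 CPM (SD, n = 3 mice per group). Which cells carried it was not tested. Of the 7 markers of those cells, 4 were higher and 3 were not called. The 7 together changed less, from a sum between 108 and 121 CPM with saline to one between 146 and 156 CPM with PD fluid. The part of resident macrophages in these changes was not tested.

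To compare levels between the receptors, the FPKM values deposited by the authors were used, since they account for transcript length. Cd36 stood first in both groups, at 551 ± 42.3 FPKM in saline mice and 746 ± 27.5 FPKM in PD mice (SD, n = 3 mice each), where it ranked 105 and 69 among all genes by mean FPKM. Marco followed at 70.2 ± 3.42 and 83.9 ± 3.17 FPKM (SD, n = 3 mice each). In saline mice, the next 4 genes, Msr1, Scarb1, Mrc1 and Cd163, had means between 11.1 and 12.6 FPKM, and the ranges of neighbours in this order overlapped. In PD mice, these 4 spread out. Msr1 and Mrc1, at 55.8 and 51.8 FPKM, overlapped with each other and lay above Scarb1 and Cd163, at 34.1 and 29.5 FPKM, which also overlapped. Scarf1 came next in both groups, followed by Colec12, Stab1 and Stab2. By the ratio of mean FPKM, the log2 change of Stab1 was 2.05, below Mrc1 at 2.20 and Msr1 at 2.15, so that its place as the most changed of the 10 held for counts and not for FPKM. Colec12 and Stab1 overlapped in both groups, whereas Stab1 and Stab2 overlapped in saline mice and were separate in PD mice. Of the FPKM summed over the 10 receptors, Cd36 made up between 80.2% and 82.1% in saline mice and between 70.9% and 73.3% in PD mice.

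**Figure D2:**
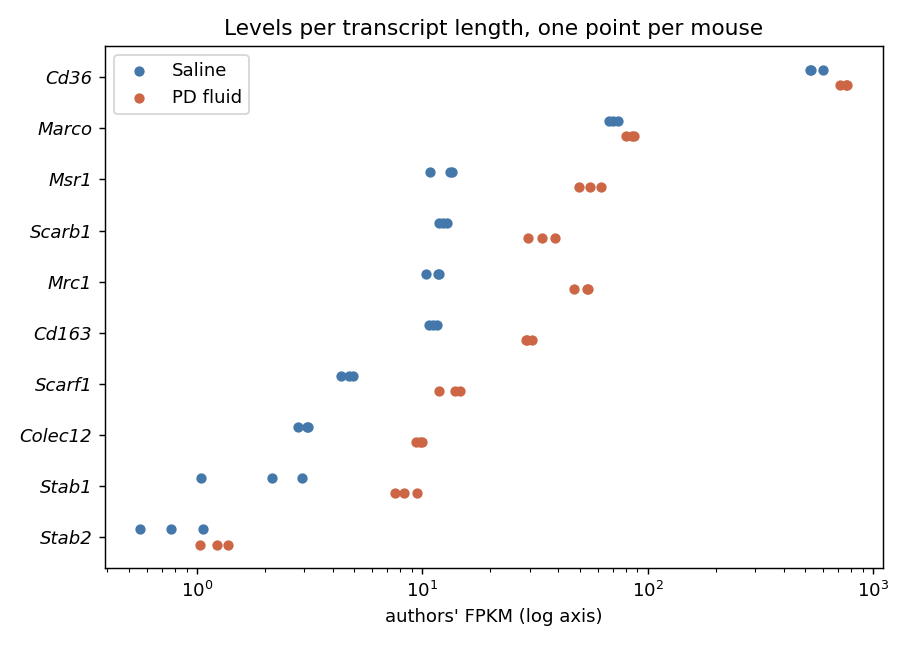
FPKM of each receptor on a log axis, with a point for each of the 3 saline and 3 PD mice and the genes ordered by their saline mean. Msr1, Scarb1, Mrc1 and Cd163 lie together between 10.3 and 13.6 FPKM in saline mice and spread from 28.7 to 62.2 FPKM in PD mice.

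Because the markers of both ECs and macrophages moved, the receptors were also read relative to each of them. Such scalings shift all genes alike and do not test the part of a cell type. With the libraries scaled to the 12 endothelial markers, the median over all tested genes shifted to -0.93 on the log2 scale. On that scale, 7 of the 10 receptors were higher and 3 were lower, so that all 10 were called, as were 8.55%, 71.5% and 80.1% of tested genes. Those lower were Stab2 at -0.76, Cd36 at -0.56 and Marco at -0.72. The receptors that stayed higher ran from 0.45 for Cd163 to 1.60 for Stab1. The 12 markers did not move alike. With the libraries scaled over all genes, they ran from 0.13 for Pecam1, the 1 not called, to 1.65 for Tie1. Stab2, at 0.18, Cd36, at 0.39, and Marco, at 0.23, lay between these values under that scaling. So did Cd163, at 1.39, Scarb1, at 1.47, and Scarf1, at 1.52, and Colec12, at 1.648, lay just under Tie1, at 1.649. The sign of all these receptors relative to ECs therefore depends on the markers taken. Msr1, at 2.05, Mrc1, at 2.18, and Stab1, at 2.55, lay above all 12 markers.

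With the libraries scaled to the 12 macrophage markers, the median over all tested genes was -2.18. Stab1 alone among the 10 was higher, at 0.35 (standard error 0.12, edgeR adjusted p = 0.00983), where 1.85% of tested genes were higher. This was read from counts, and by FPKM the log2 change of Stab1 was smaller, 2.05 against 2.55 from counts over all genes. Mrc1, at -0.014 with a 95% interval from -0.20 to 0.17 (edgeR adjusted p = 0.892), and Msr1, at -0.15 with a 95% interval from -0.39 to 0.08 (edgeR adjusted p = 0.234), were not called in either direction. The other 7 were lower, against 91.7% of tested genes, and 93.5% were called in either direction. Within them, Colec12, Scarf1, Scarb1 and Cd163 lay between -0.54 and -0.80, while Cd36, Marco and Stab2 lay between -1.80 and -2.003.

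**Figure D3:**
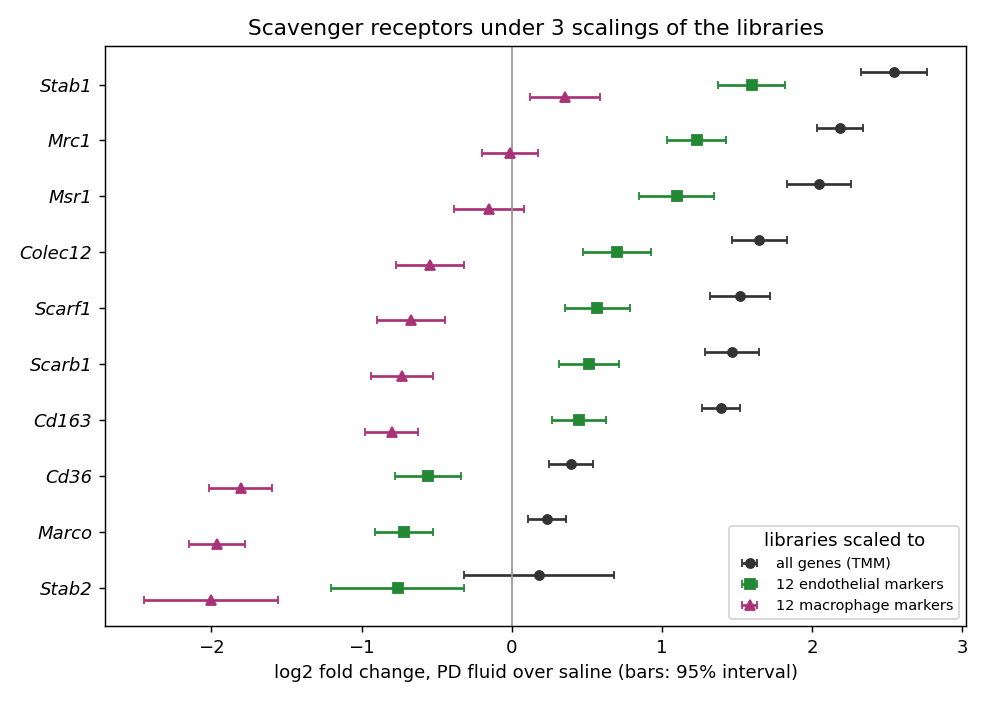
Log2 fold change of each receptor, PD over saline, with 95% intervals as bars, when libraries are scaled over all genes (circles), to 12 endothelial markers (squares) or to 12 macrophage markers (triangles). The bars of Mrc1 and Msr1 include 0 under the macrophage scaling, and Cd36, Marco and Stab2 lie below 0 under both marker scalings.

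The wider receptor system was read from 6 lists with 89 distinct genes, of which 80 were tested. In all, 59 were higher and 5 lower in PD mice (edgeR, adjusted p under 0.05), against 31.1% and 27.8% of all tested genes. Of the 80, 75 reached the cutoff of the filter on low counts in all 6 libraries, and 56 of these were higher and 5 lower. The others were Olr1, Ager, Lrp4, Mrc2 and Apoa1, and Mrc2 and Apoa1 passed the filter through the PD mice alone. Among 13 tested scavenger receptors outside the 10, 12 were higher, with a median log2 fold change of 1.71, and Ager, the receptor for glycated proteins, was not called at 0.64 (standard error 0.52, edgeR adjusted p = 0.309). Cd14, the endotoxin co-receptor, had the highest value at 3.19 and went from 52.1 ± 1.01 to 475 ± 34.9 CPM (SD, n = 3 mice each). Olr1, the endothelial receptor for oxidised low-density lipoprotein, went from 0.495 ± 0.181 to 4.57 ± 0.211 CPM (SD, n = 3 mice per group), a log2 fold change of 3.18. On the same scale Scara5, a ferritin receptor, rose by 2.99 and Lrp1, which clears many protease complexes, by 2.77.

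Among 17 tested genes of the LDL receptor family and other endocytic receptors, 10 were higher and 1 lower, with a median of 0.67. Mrc2, the collagen receptor related to Mrc1, had 3 counts over the 3 saline mice and 78 over the 3 PD mice, a ratio of 25.4 (exact 95% interval for counting error 8.38 to 126). Lrp5 rose by 1.53 on the log2 scale, the folate receptor Folr2 by 1.52 and the lipoprotein receptor Vldlr by 1.39, whereas Ly75, a dendritic cell lectin, fell by 0.58. Receptors for apoptotic cells included 7 of 10 tested genes that were higher, among them Itgb5 at 2.34, Axl at 1.69, Cd300a at 1.68 and Mertk at 1.66, and 1 that was lower, Havcr1 at -0.72.

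Adaptors and trafficking genes moved least, with 6 of 13 higher, 2 lower and a median of 0.17. Dab2, an adaptor of clathrin-coated pits, rose by 1.72 and Ap2a1, a subunit of the coat's adaptor complex, by 1.04. Gulp1, which binds the tail of stabilins, rose by 0.75. Those lower were Gga2, a sorting adaptor, at -0.81 and the actin-binding Tmsb4x at -0.36. Of the ligand genes, the 9 that reached the cutoff in all 6 libraries were all higher, with a median of 1.97. They included Thbs1, a ligand of Cd36, at 2.49, Gdf15 at 2.48 and Hp, whose product carries haemoglobin to Cd163, at 3.47. Apoa1, the core protein of high-density lipoprotein, had 1 count over the saline mice and 302 over the PD mice, a ratio of 295 (exact 95% interval for counting error 52.6 to 11696). Of 17 lysosomal and lipid handling genes, 14 were higher and 1 lower, with a median of 0.73. The cathepsins Ctsl, Ctsd and Ctsb rose by 1.95, 1.88 and 1.60 and the lipid droplet gene Plin2 by 1.30, while Abcg1, a cholesterol exporter, fell by 1.15.

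**Figure D4:**
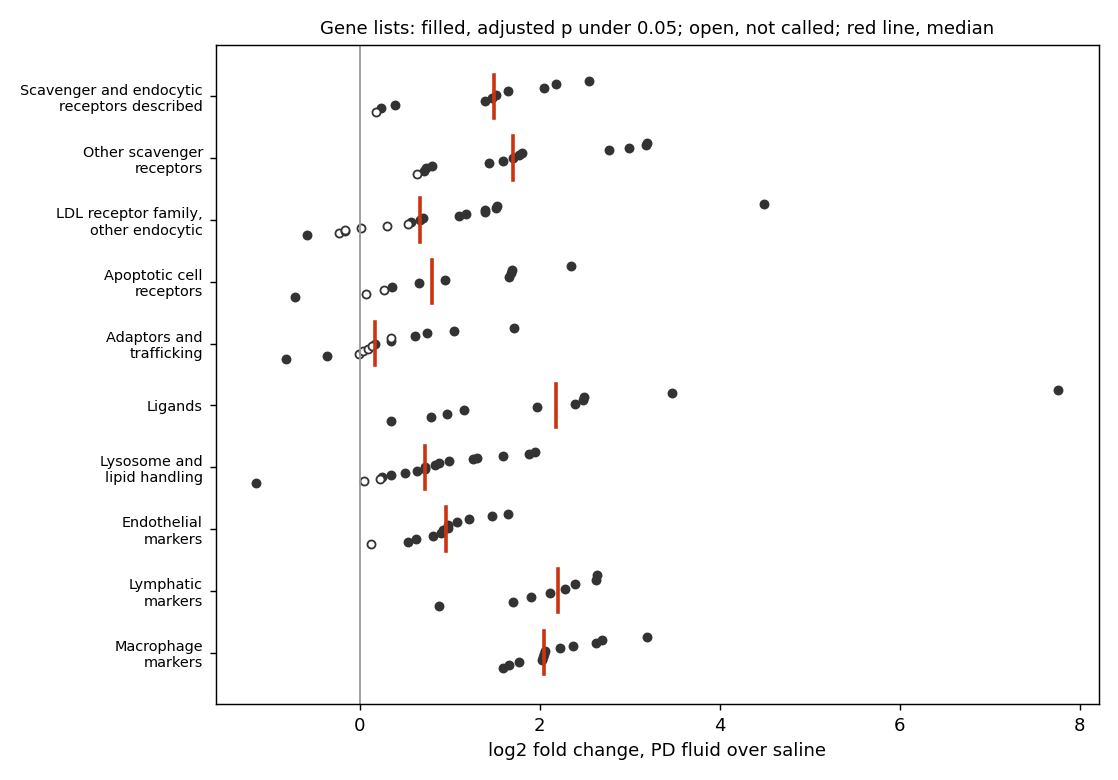
Log2 fold change, PD over saline, of each tested gene in the 10 receptors, the 6 lists of related genes and 3 marker lists. Filled points passed an adjusted p of 0.05 in edgeR, open points did not, and red lines are medians, which run from 0.17 for adaptors to 2.20 for lymphatic markers. The median was 1.49 for the 10 receptors, 0.96 for the endothelial markers and 2.05 for the macrophage markers. The part of these cell types in the receptor changes was not tested.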

How the data were processed

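RNA was sequenced from peritoneal ECs of 3 saline and 3 PD mice. The authors deposited a table of read counts per gene and mouse, without normalization, together with the FPKM values they computed per mouse. Its group means, log2 ratio, p-value and FDR columns, which hold the authors' own comparison, were not used. The submitters' processing notes name fastp 0.18.0, Bowtie2 2.2.8, HISAT2, StringTie and RSEM, and the genome build is not given in the sources used here. Positions are those of GENCODE M21 on GRCm38, matched by Ensembl identifier for 22128 genes.

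Counts were tested with edgeR 4.0.16 (R 4.3.3) by quasi-likelihood after filterByExpr, which kept 14005 genes, and TMM scaling, with no covariate. P-values were adjusted over all tested genes by Benjamini-Hochberg, with a threshold of 0.05. CPM values are scaled by TMM, and standard errors were derived from the F statistic. The study's methods name limma, which was run as an alternative, as was DESeq2 1.42.0. For the marker scalings, each library was divided by the geometric mean of 12 markers (count + 0.5). The test was checked on simulated data. The 10 receptors and all gene lists were chosen with earlier results of these data known. From each list of related genes, up to 4 called genes with the largest absolute log2 fold change were named, and from marker lists the most abundant, besides genes needed to account for a small count and a few that define a cell type, chosen after their values were seen. Depth was 21973426 to 26374292 counts per library, and replicates differed by more than sampling noise.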

Additional observations from a re-analysis of the deposited data

How the results depend on the processing

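Of the 10 receptors, 9 were higher under DESeq2, limma-voom (limma 3.58.1), RLE size factors, no filter on low counts, the replicate number as a block, and when any 1 mouse was dropped. A fold change of at least 2 left 7, and then 2158 of all tested genes were higher and 252 lower, with 34 and 1 of the related genes. Scaling to endothelial markers gave 3 receptors lower, 1197 genes higher and 10016 lower, and 27 and 31 of the related genes. Log2 fold changes turned to -0.76 for Stab2, -0.56 for Cd36 and -0.72 for Marco. Scaling to macrophage markers gave 1 receptor higher and 7 lower, 259 genes higher and 12841 lower, and 9 and 66 of the related genes. The log2 fold changes were then -2.003 for Stab2, -1.80 for Cd36, -0.15 for Msr1, -1.96 for Marco, -0.80 for Cd163, -0.014 for Mrc1, -0.54 for Colec12, -0.67 for Scarf1 and -0.73 for Scarb1. Both scalings move every gene by construction. Without each mouse in turn, Stab2 ranged from -0.084, without the second saline mouse, to 0.47, and Marco, the weakest call, from 0.21 to 0.28.

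The labels number the mice 1 to 3 in both groups. Libraries with the same number had correlations of 0.10, 0.04 and -0.17 between their deviations from the group means, and 1 of 3 saline libraries correlated best with its own number, so the number is not taken as a pairing. With the replicate block, 4242 genes were higher and 3667 lower, against 4359 and 3887, with 9 receptors higher, and 59 and 5 of the related genes. Stab2 had 74 to 194 counts per library and a coefficient of variation of 39.5% among saline mice. The overlaps of Stab1 with Nt5dc2 and of Stab2 with Gm16268 on the other strand were not resolved.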

Other observations

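Transcripts of myeloid cells, which also carry scavenger receptors, took different courses in these libraries. Of the neutrophil markers, 4 of 5 tested were higher in PD mice, and S100a8 went from 1.42 ± 0.296 to 82.9 ± 3.14 CPM (SD, n = 3 mice each). Among 8 dendritic cell markers, 4 were higher and 2 lower, the most abundant being H2-Ab1, which B cells express too. Their summed level was between 11450.5 and 11682 CPM with saline and between 6381 and 7543 CPM with PD fluid. Of the 7 monocyte markers, 5 were higher and 2 lower. These summed to between 1372 and 1548 CPM with saline and to between 1246 and 1332 CPM with PD fluid.

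The transcript length implied by the deposited counts and FPKM was steady across libraries for Mrc1, at 5374 bases, and for Cd163, at 4412 to 4416 bases. For Stab1 it ran from 3538 to 7998 bases, both among saline mice, and for Stab2 from 5283 to 8062 bases. FPKM put Stab2 at 0.797 ± 0.251 in saline mice and 1.21 ± 0.175 in PD mice (SD, n = 3 mice each), a log2 ratio of the means of 0.60, against 0.18 from the counts. For Stab1 the same ratio was 2.05, against 2.55 from the counts. Levels of the stabilins per length are therefore less certain than their counts.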
